A study of Oryza sativa with 12 samples.

Results

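The auxin genes described here are rice genes of the Aux/IAA, ARF, PIN, GH3, YUCCA and SAUR families, chosen by name. A gene was a member when its symbol or a synonym was IAA, ARF, PIN, GH3, YUCCA or SAUR followed by a number, or was OsETTIN1, and when a probe set annotated to that gene alone lay on the array. Of 71 rice genes with such a name, 59 were measured, of 17905 genes measured in all. Of the genes so named they comprised 26 of 28 Aux/IAA genes, 17 of 23 ARF genes (OsETTIN1 and OsETTIN2 among them), 9 of 9 GH3 genes, 5 of 9 PIN genes, 1 YUCCA gene and 1 SAUR gene. Genes of these families without such a name were not counted, so these are not family sizes. A family below means its measured members. Each gene was read by the probe set with the highest mean over all arrays.

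Auxin (indole-3-acetic acid, IAA) is the plant hormone whose local maxima mark where lateral organs and floral organs start. YUCCA enzymes complete its synthesis, PIN proteins carry it out of cells or into the endoplasmic reticulum, and GH3 enzymes join it, or another acid, to amino acids. Aux/IAA proteins hold ARF transcription factors inactive until auxin, bound by the TIR1/AFB receptors, sends the Aux/IAA proteins to degradation. Many Aux/IAA and GH3 genes are themselves switched on by auxin, so their transcripts are often read as signs of auxin response.

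The samples were whole panicles of field-grown rice (Oryza sativa) that had received no special treatment. There were 4 groups of 3 biological replicates: the osmads1 mutant and wild type at a panicle length of 2 mm, which the submitters call an early stage of flower development, and both genotypes at 5-7 mm, a late stage. OsMADS1 is a MADS-box transcription factor of floret meristem and floral organ identity, and the study asked what it does at each stage. The labels give neither the allele nor the background of the mutant, and they do not say from how many plants a replicate was taken.

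Levels are log2 values of Affymetrix rice arrays. Differences are osmads1 minus wild type on the log2 scale ± SE. Adjusted p-values are two-sided, from limma with Benjamini-Hochberg adjustment over all 57194 probe sets tested, and a gene is said to have risen, fallen or been called where the adjusted p was under 0.05. Each 2 mm array had a median of 4.10 to 4.13 and each 5-7 mm array one of 4.93 to 5.00, and for this reason levels are compared within a length. Levels of different genes come from different probe sets and are not compared. Whole panicles were measured, so fewer cells of a type and less RNA per cell cannot be told apart.

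The OsMADS1 probe set, a check of the mutant, ranged from 3.49 to 5.25 on the 6 osmads1 arrays and from 10.57 to 11.61 on the 6 wild-type arrays. The reporter controls are probe sets for genes that rice lacks, and their range is taken here as up to their upper quartile, 3.26 to 3.96 by group. The highest reporter read 5.08 to 6.61 by group, so a level above the range may still be background. In wild type all 12 panicle and floret identity genes read above that range. In osmads1 at 2 mm 1 of these genes, OsMADS3, read within it. In osmads1 7 of the 12 fell and none rose at 2 mm, and 8 fell and 3 rose at 5-7 mm. Their mean level per array was 7.76 to 7.92 in osmads1 and 8.55 to 8.83 in wild type at 2 mm, and 9.29 to 9.57 and 9.94 to 10.02 at 5-7 mm. Other gene groups also held called genes, where 22.3% of all genes were called at 2 mm and 32.7% at 5-7 mm. All 4 replication helicase genes (OsMCM2, 4, 6 and 7) fell at 2 mm (median -0.74) and rose at 5-7 mm (median 1.18). Their mean level per array was 8.26 to 8.59 in osmads1 and 9.10 to 9.26 in wild type at 2 mm, and 10.90 to 10.98 and 9.64 to 9.95 at 5-7 mm. Of 6 anther genes 3 rose and 1 fell at 2 mm, and 1 rose and 2 fell at 5-7 mm. Their mean level was 5.67 to 5.89 in osmads1 and 4.89 to 4.97 in wild type at 2 mm, and 5.55 to 5.65 and 5.93 to 6.13 at 5-7 mm. Of 6 green tissue genes 4 rose at 2 mm, and 3 rose and 1 fell at 5-7 mm, with mean levels of 6.55 to 7.22 in osmads1 and 5.83 to 6.19 in wild type at 2 mm, and 6.53 to 7.15 and 6.01 to 6.28 at 5-7 mm. The 3' minus 5' reading of a GAPDH control, a sign of RNA quality, was 2.58 ± 0.059 for the mutant and 3.58 ± 0.042 for the wild type in the shorter panicles (SD, n = 3). At 5-7 mm that reading was 2.24 ± 0.44 and 2.10 ± 0.16. The other 5 such control pairs also had lower means in osmads1 at 2 mm: 5.99 against 6.12 and 4.59 against 5.11 for both actin pairs, 1.12 against 1.37 for cyclophilin, 0.25 against 0.51 for ubiquitin and 0.075 against 0.166 for a dim GAPDH pair. At 5-7 mm the means of these 5 were higher in osmads1, with an SD within a group of up to 0.43. They were 4.34 against 4.31 and 3.18 against 2.98 for actin and 0.85 against 0.80 for cyclophilin. For ubiquitin they were -0.021 against -0.16, and for the dim GAPDH pair -0.15 against -0.35. The part of these groups and of RNA quality in the auxin gene differences was not tested.

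In all 4 groups 2 members, IAA16 and SAUR39, read within the range of the reporter controls, 7 did so in some groups, and 50 in none. Differences of dim probe sets are compressed on these arrays.

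The auxin genes did not move one way in the mutant. At 2 mm, 6 rose and 8 fell in osmads1, 14 of 59 or 23.7%, where 22.3% of all measured genes were called (10.2% higher and 12.1% lower). At 5-7 mm, 15 rose and 10 fell, 42.4% of the members beside 32.7% of all genes (13.3% higher and 19.4% lower). The median member difference was 0.023 at 2 mm and 0.10 at 5-7 mm, against -0.017 at both lengths over all genes. The 3 osmads1 and 3 wild-type arrays did not overlap in any of the 14 and 25 called members, which held for 99.5% and 98.4% of all called genes too, and for 46.0% and 51.4% of all genes. The median size of the called differences was 0.46 at 2 mm and 0.61 at 5-7 mm. A change of at least 2-fold was measured for 0 members at 2 mm and for 2, PIN3A and GH3.4, at 5-7 mm. The share of all genes past 2-fold was not counted, so these sizes are not set against other genes. The count of 8 lower members at 2 mm depended on single arrays of that length: it was 5, 5 and 4 without osmads1 replicates 1, 2 and 3, and 5, 2 and 5 without wild-type replicates 1, 2 and 3.

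**Figure D1:**
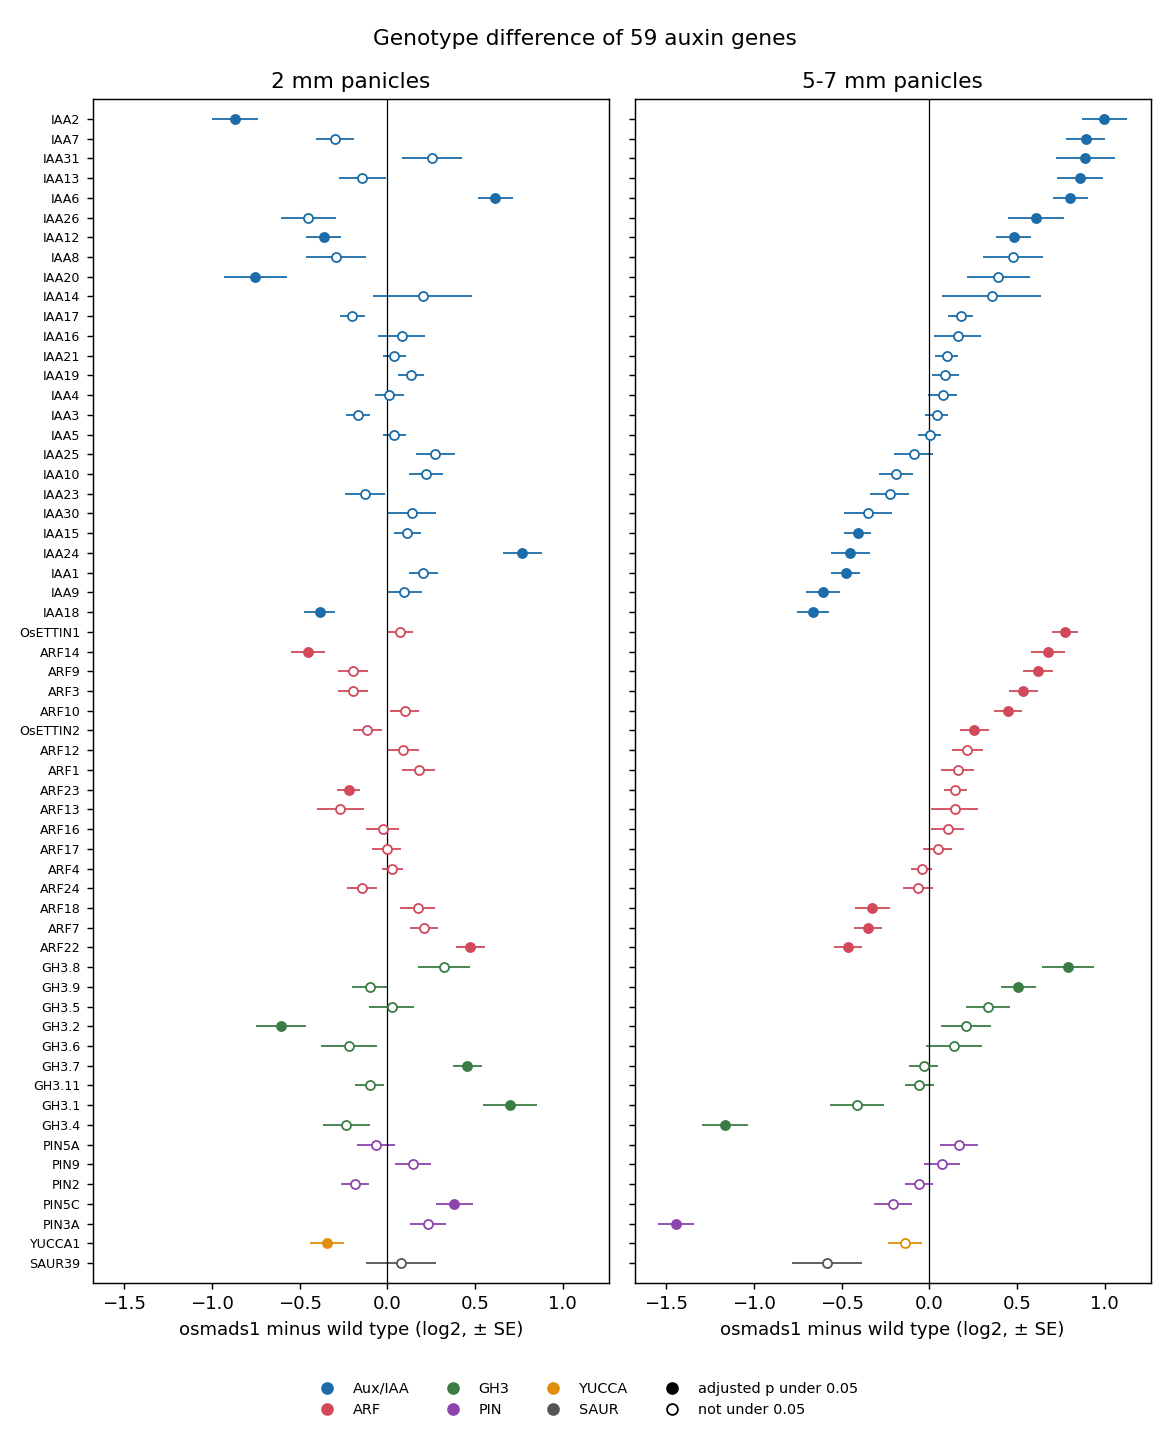
Difference between osmads1 and wild type (log2, horizontal axis, point ± SE from the limma fit) for each of the 59 auxin genes (vertical axis) at 2 mm (left) and 5-7 mm (right), ordered within family by the 5-7 mm difference. Filled points have an adjusted p under 0.05, 14 at 2 mm and 25 at 5-7 mm, and lie on both sides of 0 in the Aux/IAA, ARF and GH3 families.

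Of the 17 ARF transcription factor genes 6 rose and 3 fell in osmads1 at 5-7 mm, and 1 rose and 2 fell at 2 mm, 52.9% and 17.6% of the family beside 32.7% and 22.3% of all genes. All 4 ETTIN-type ARF genes (OsETTIN1, OsETTIN2, ARF3 and ARF14) rose at 5-7 mm, by 0.26 to 0.77, where 13.3% of all genes rose. At 2 mm 1 of them, ARF14, fell and none rose, with differences from -0.45 to 0.074. ETTIN-type ARFs are a class that the trans-acting small RNA tasiR-ARF cleaves, and in Arabidopsis ETTIN patterns the gynoecium. The grouping of ARF genes into classes was made with these values in view and carries no test.

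OsETTIN1, also named ARF15, a gene on chromosome 5, read 11.46, 11.69 and 11.55 in osmads1 and 10.83, 10.81 and 10.73 in wild type at 5-7 mm. Each mutant array was above each wild-type array by more than the spread within either genotype, a 1.71-fold rise (0.77 ± 0.074, adjusted p = 7.03e-06). At 2 mm the same gene read 10.61, 10.49 and 10.55 in osmads1 and 10.49, 10.45 and 10.49 in wild type, a difference of 0.07 ± 0.074 (adjusted p = 0.659). The change of its difference between the lengths passed (interaction 0.70 ± 0.10, adjusted p = 0.000291).

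ARF14, on chromosome 5 like OsETTIN1, fell at the short length and rose at the long one. At 2 mm it read 7.73, 7.54 and 7.70 in osmads1 and 8.09, 8.10 and 8.14 in wild type, with all mutant arrays lower (-0.45 ± 0.096, adjusted p = 0.00697). At the longer length ARF14 read 9.45, 9.81 and 9.61 against 8.85, 9.06 and 8.93, with all mutant arrays higher (0.68 ± 0.096, adjusted p = 0.0002). The interaction of 1.13 ± 0.14 (adjusted p = 4.65e-05) had the largest size among the 17 ARF genes.

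ARF3 and OsETTIN2 moved in the same direction at 5-7 mm, the latter by little. ARF3 read 10.98, 11.21 and 11.07 in osmads1 and 10.65, 10.52 and 10.48 in wild type, with no overlap (0.54 ± 0.083, adjusted p = 0.000421). OsETTIN2, which promotes awn formation in rice, read 11.17, 11.51 and 11.33 against 11.08, 11.12 and 11.04 (0.26 ± 0.083, adjusted p = 0.0434). The OsETTIN2 call held in 1 of the 12 fits that left out 1 array each, the one without osmads1 replicate 1 of that length (adjusted p up to 0.156 in the others). So did its interaction call (0.37 ± 0.12, adjusted p = 0.0372, up to 0.0813 in the others). A second OsETTIN2 probe set differed by 0.37 at 5-7 mm (adjusted p = 0.00226).

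**Figure D2:**
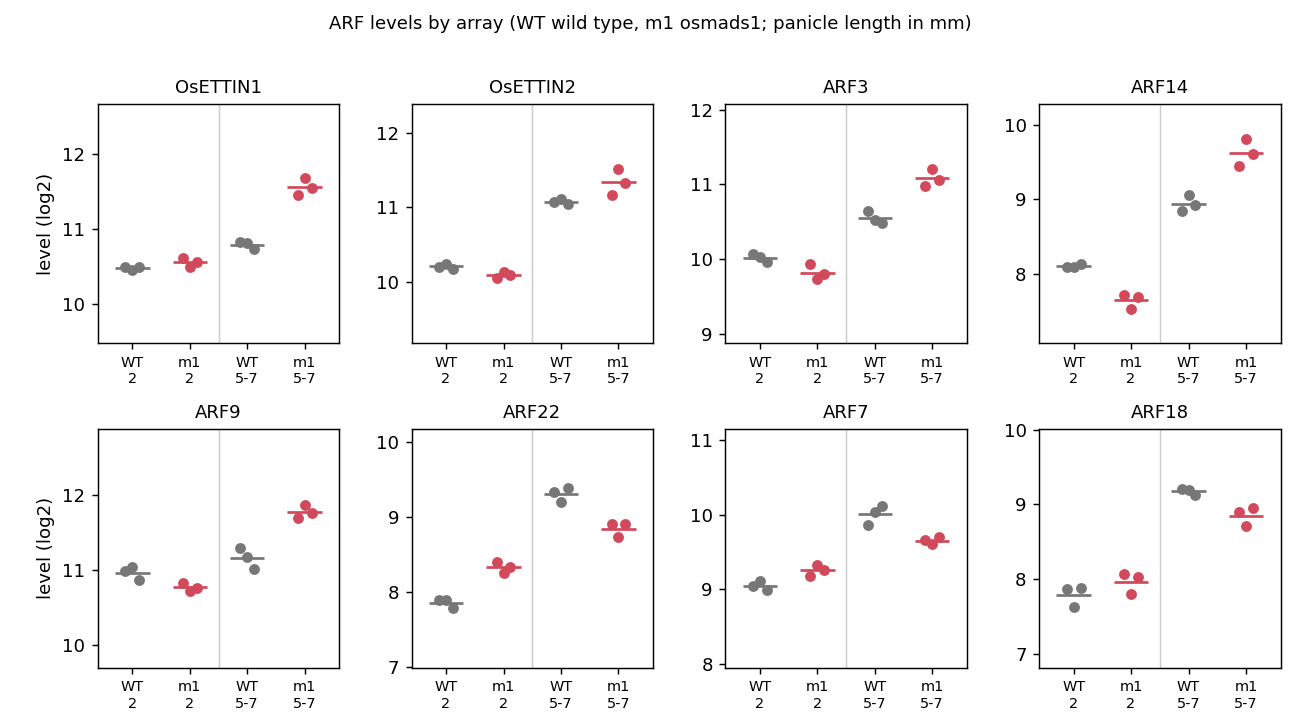
Levels (log2, vertical axis) of 8 ARF genes on each of the 12 arrays, by genotype and panicle length (horizontal axis), with a bar at each group mean of 3 arrays. At 5-7 mm the osmads1 arrays lie above the wild-type arrays for OsETTIN1, OsETTIN2, ARF3, ARF14 and ARF9 and below them for ARF22, ARF7 and ARF18; levels left and right of the grey line are not on one scale.

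The measured ARF genes placed in the miR160-targeted type here, ARF10, ARF18 and ARF22, split. ARF22, on chromosome 10, read 8.40, 8.25 and 8.33 in osmads1 and 7.90, 7.89 and 7.78 in wild type at 2 mm, and 8.90, 8.74 and 8.91 against 9.34, 9.20 and 9.39 at 5-7 mm. Its arrays did not overlap at either length and it turned from a rise (0.47 ± 0.081, adjusted p = 0.00164) to a fall (-0.46 ± 0.081, adjusted p = 0.00105), with an interaction of -0.93 ± 0.11. At 5-7 mm ARF10 rose (0.45 ± 0.081, adjusted p = 0.00128) and ARF18 fell (-0.32 ± 0.099, adjusted p = 0.0322). Leaving out osmads1 replicate 1, osmads1 replicate 2 or any 1 wild-type array of that length ended the ARF18 call (largest adjusted p 0.118). The ARF10 interaction (0.35 ± 0.11, adjusted p = 0.0426) was lost in 10 of 12 fits that left out 1 array each, all but those without osmads1 replicate 3 at 2 mm or osmads1 replicate 1 at 5-7 mm (adjusted p up to 0.103). The ARF18 interaction (-0.50 ± 0.14, adjusted p = 0.0205) ended when osmads1 replicate 1, osmads1 replicate 3 or wild-type replicate 2 of 2 mm was left out (largest adjusted p 0.0545).

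Among the 7 ARF genes placed in no class here, ARF9 rose and ARF7 fell at 5-7 mm. ARF9 read 11.69, 11.87 and 11.76 in osmads1 and 11.29, 11.17 and 11.01 in wild type (0.62 ± 0.086, adjusted p = 0.000171). ARF7 read 9.65, 9.61 and 9.70 against 9.86, 10.03 and 10.11 (-0.35 ± 0.079, adjusted p = 0.00625). Neither gene's arrays overlapped between the genotypes. ARF23 fell at 2 mm by the smallest called difference of that length, from 12.29, 12.29 and 12.32 in wild type to 12.06, 12.13 and 12.05 in osmads1 (-0.22 ± 0.064, adjusted p = 0.0406). That call was lost without any 1 of the 6 arrays of 2 mm panicles or without wild-type replicate 1 or 2 of 5-7 mm (adjusted p up to 0.138). A second ARF23 probe set differed by -0.13 at 2 mm (adjusted p = 0.425). At 5-7 mm that second probe set differed by 0.30 (adjusted p = 0.0181), and the brighter one by 0.15 ± 0.064 (adjusted p = 0.126).

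ARF5, ARF6, ARF8, ARF19, ARF21 and ARF25 had no probe set of their own and were placed in no class here. The ARF classes, the miR160-targeted and activator ones among them, may therefore not be covered whole. Products of the activator class switch auxin-responsive genes on. The measured genes placed in that class here, ARF12, ARF16 and ARF17, were called in no genotype contrast. They differed by -0.03 to 0.09 in the shorter panicles and by 0.05 to 0.22 in the longer ones. ARF12, which acts in root elongation, read 11.73, 11.67 and 11.69 in osmads1 and 11.55, 11.47 and 11.41 in wild type at 5-7 mm, and this difference of 0.22 ± 0.090 did not pass (adjusted p = 0.108), although the arrays did not overlap. ARF4 read 11.62 on each osmads1 array and 11.71, 11.64 and 11.65 in wild type at that length (-0.04 ± 0.061, adjusted p = 0.688). ARF24 differed by -0.14 ± 0.085 and -0.06 ± 0.085 at the shorter and longer length, with overlapping arrays at both.

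Among the Aux/IAA repressor genes 12 of 26 were called at 5-7 mm, 7 higher and 5 lower in osmads1, and 6 of 26 at 2 mm, 2 higher and 4 lower. These are 46.2% and 23.1% of the family, where 32.7% and 22.3% of all genes were called. IAA2, a gene on chromosome 1, had the largest difference of the family at both lengths, in opposite directions. At 2 mm IAA2 read 8.33, 7.84 and 8.18 in osmads1 and 8.99, 9.08 and 8.89 in wild type, 1.83-fold lower (-0.87 ± 0.13, adjusted p = 0.000575). In the longer panicles IAA2 read 10.28, 10.45 and 10.39 against 9.61, 9.33 and 9.19, a difference of 0.999 ± 0.13 (adjusted p = 9.21e-05). The arrays did not overlap at either length, and the interaction of 1.87 ± 0.18 (adjusted p = 8.01e-06) was the largest among the 59 auxin genes.

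IAA24, on chromosome 7, turned the other way. It read 8.85, 9.13 and 8.93 in osmads1 and 8.29, 8.06 and 8.25 in wild type at 2 mm (0.77 ± 0.11, adjusted p = 0.00052). At 5-7 mm it read 8.96, 8.54 and 8.80 against 9.26, 9.27 and 9.12 (-0.45 ± 0.11, adjusted p = 0.0114). Mutant arrays were thus all above wild type at the short length and all below it at the long one, with an interaction of -1.22 ± 0.16 (adjusted p = 9.44e-05).

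IAA6 and IAA18 kept their direction. IAA6, a gene linked to tiller outgrowth and drought tolerance in rice, read 6.53, 6.26 and 6.49 in osmads1 and 5.69, 5.85 and 5.89 in wild type at 2 mm (0.62 ± 0.10, adjusted p = 0.00119). At 5-7 mm it read 7.13, 7.05 and 7.28 against 6.47, 6.37 and 6.20 (0.80 ± 0.10, adjusted p = 7.15e-05). It was the only auxin gene called higher at both lengths. IAA18 was the only one called lower at both, with 5.54, 5.56 and 5.51 in osmads1 and 5.98, 5.96 and 5.83 in wild type at 2 mm (-0.39 ± 0.091, adjusted p = 0.0129). At 5-7 mm IAA18 read 7.11, 6.94 and 7.09 against 7.87, 7.73 and 7.53 (-0.66 ± 0.091, adjusted p = 0.000148). Leaving out osmads1 replicate 3, wild-type replicate 1 or wild-type replicate 2 of the 2 mm arrays ended the IAA18 call there (largest adjusted p 0.0554). The interaction did not pass for IAA6 (0.19 ± 0.14, adjusted p = 0.413) or for IAA18 (-0.28 ± 0.13, adjusted p = 0.159).

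**Figure D3:**
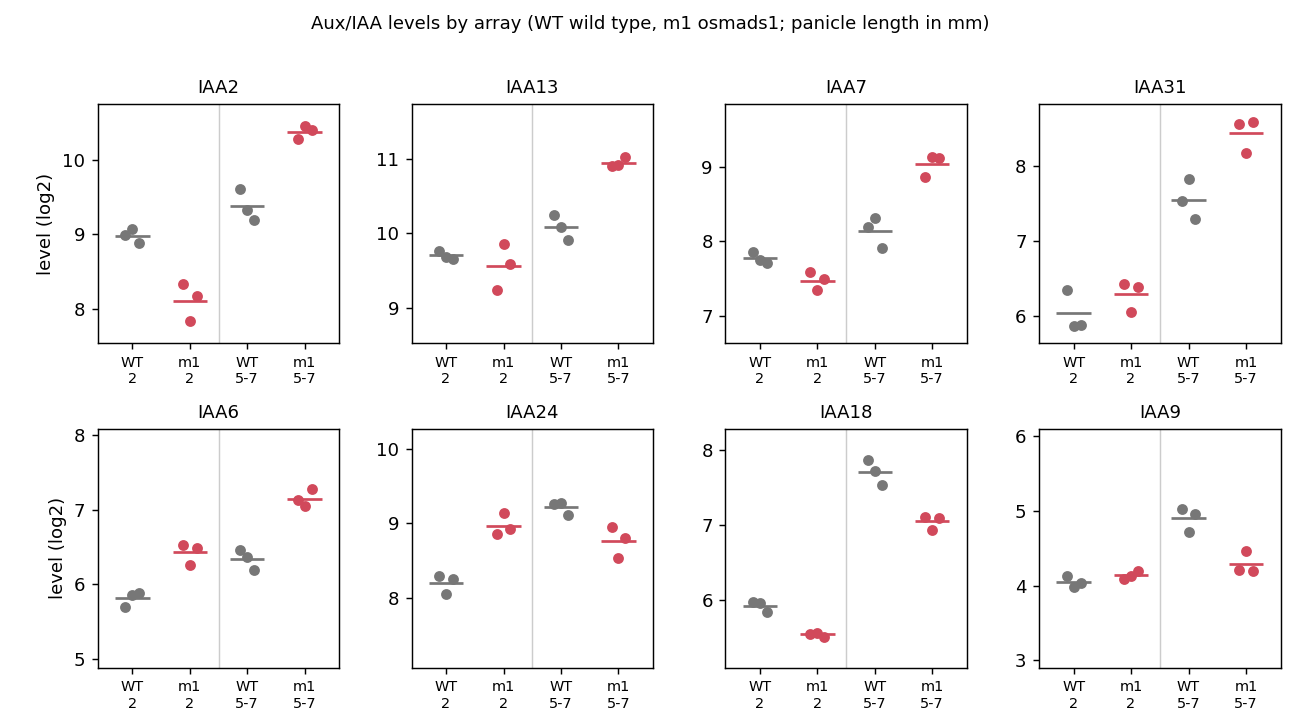
Levels (log2, vertical axis) of 8 Aux/IAA genes on each of the 12 arrays, by genotype and panicle length (horizontal axis), with a bar at each group mean of 3 arrays. IAA2 and IAA24 change the order of the genotypes between lengths, while IAA6 is higher and IAA18 lower in osmads1 at both; levels left and right of the grey line are not on one scale.

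IAA7, IAA13, IAA31 and IAA26 rose at 5-7 mm without being called at 2 mm. IAA13, a gene whose stabilised form blocks lateral root formation in rice, read 10.90, 10.92 and 11.02 in osmads1 and 10.25, 10.09 and 9.91 in wild type (0.86 ± 0.13, adjusted p = 0.000355). IAA7 read 8.86, 9.13 and 9.11 against 8.20, 8.31 and 7.92 (0.89 ± 0.11, adjusted p = 6.35e-05). In both genes every mutant array exceeded every wild-type array. Their interactions were 1.004 ± 0.19 and 1.19 ± 0.16.

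IAA31 read 8.56, 8.17 and 8.59 in osmads1 and 7.53, 7.82 and 7.30 in wild type at 5-7 mm (0.89 ± 0.17, adjusted p = 0.00193). A second, dimmer IAA31 probe set differed by -0.083 (adjusted p = 0.541). The adjacent gene on chromosome 12, IAA30, differed by -0.35 ± 0.14 (adjusted p = 0.0973), below wild type on all 3 mutant arrays. IAA26 read 6.77, 7.56 and 7.14 against 6.69, 6.40 and 6.54 (0.61 ± 0.16, adjusted p = 0.0145), a call lost without wild-type replicate 2 of that length (adjusted p = 0.0609). At 2 mm IAA26 read 6.64, 6.96 and 6.86 against 7.28, 7.19 and 7.33, which did not pass (-0.45 ± 0.16, adjusted p = 0.096), and its interaction was 1.06 ± 0.23.

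Lower at 5-7 mm alone were IAA9 (-0.61 ± 0.098), IAA1 (-0.48 ± 0.083) and IAA15 (-0.41 ± 0.076). IAA9 read 4.22, 4.47 and 4.20 in osmads1 and 5.03, 4.72 and 4.97 in wild type, without overlap (adjusted p = 0.000571). IAA1, which takes part in auxin and brassinosteroid responses in rice, read 9.27, 9.27 and 9.39 against 9.79, 9.68 and 9.88 (adjusted p = 0.000984), and a second, dimmer IAA1 probe set differed by -0.20 (adjusted p = 0.288). IAA15 read 10.03, 10.10 and 10.11 against 10.64, 10.42 and 10.42 (adjusted p = 0.00172). The arrays of these 3 genes were lower in osmads1 in each case.

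Dim Aux/IAA probe sets gave lower limits only, which hold if the reporter range ends at its upper quartile. IAA20 read 2.91, 2.91 and 3.07 in osmads1 at 2 mm, within the range of the reporter controls, and 3.52, 3.84 and 3.79 in wild type. It was at least 1.37-fold lower (-0.75 ± 0.18, adjusted p = 0.014), a call that ended when osmads1 replicate 2, wild-type replicate 2 or wild-type replicate 3 of that length was left out (largest adjusted p 0.0608). IAA12 was at least 1.22-fold lower at 2 mm (adjusted p = 0.0325) and at least 1.25-fold higher at 5-7 mm (adjusted p = 0.00378), with one genotype of each length in the reporter range. Leaving out replicate 1 of either genotype, osmads1 replicate 3 or wild-type replicate 2 of the 2 mm arrays ended the lower call of IAA12 (largest adjusted p 0.142). IAA16 was in that range in every group, so that no fold is given.

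Several bright Aux/IAA genes differed little. IAA3 read 12.79, 12.90 and 12.89 in osmads1 and 12.81, 12.86 and 12.78 in wild type at 5-7 mm (0.04 ± 0.068, adjusted p = 0.724), and -0.17 ± 0.068 was its difference at 2 mm (adjusted p = 0.149). IAA5 differed by 0.04 ± 0.066 and 0.00 ± 0.066, and IAA21 by 0.04 ± 0.067 and 0.10 ± 0.067, at the shorter and longer length. IAA10, a target of a rice dwarf virus protein, and IAA8 were called in no genotype contrast, but their interactions were (-0.41 ± 0.14, adjusted p = 0.0482, and 0.77 ± 0.24, adjusted p = 0.0351). The IAA10 interaction was lost in 9 of 12 fits that left out 1 array each, all but those without osmads1 replicate 2 or wild-type replicate 1 at 2 mm or osmads1 replicate 1 at 5-7 mm (adjusted p up to 0.112). That of IAA8 was lost in 7 of 12, when the array left out was osmads1 replicate 1, osmads1 replicate 2, wild-type replicate 2 or wild-type replicate 3 of 2 mm, or osmads1 replicate 1, wild-type replicate 2 or wild-type replicate 3 of 5-7 mm (largest adjusted p 0.0887). The osmads1 group of IAA8 at 2 mm (3.16) was within the reporter range, and the interaction of its second, dimmer probe set was 0.01 (adjusted p = 0.967).

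PIN3A, a PIN3-type auxin efflux carrier gene on chromosome 1, had the largest difference of all 59 auxin genes. At 5-7 mm it read 7.71, 7.38 and 7.79 in osmads1 and 9.05, 8.98 and 9.17 in wild type. The genotypes were far apart beside the spread within each, and the transcript was 2.72-fold lower in the mutant (-1.44 ± 0.10, adjusted p = 4.30e-07). A second PIN3A probe set differed by -1.08 (adjusted p = 2.25e-05). At 2 mm PIN3A read 8.26, 8.11 and 8.19 in osmads1 and 8.001, 7.98 and 7.89 in wild type, a difference of 0.23 ± 0.10 that did not pass (adjusted p = 0.195). The interaction was -1.68 ± 0.14 (adjusted p = 2.46e-06).

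The other 4 PIN genes were dim. PIN5C, of a type that sits in the endoplasmic reticulum membrane in Arabidopsis, read 3.85, 3.82 and 3.66 in osmads1 and 3.27, 3.53 and 3.39 in wild type at 2 mm, without overlap (0.38 ± 0.11, adjusted p = 0.0345). Leaving out replicate 1 of either genotype, osmads1 replicate 2 or wild-type replicate 3 of that length ended the call (largest adjusted p 0.14). At 5-7 mm both genotypes of PIN5C read within the reporter range, and its interaction of -0.59 ± 0.15 (adjusted p = 0.0129) rests on those values. PIN2, PIN5A and PIN9 were not called at either length, with differences of -0.18 to 0.15 at 2 mm and -0.06 to 0.17 at 5-7 mm.

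Of the 9 GH3 conjugation genes 2 rose and 1 fell at each length, and they were different genes at the 2 lengths. The 33.3% called at each length stands beside 22.3% of all genes at 2 mm and 32.7% at 5-7 mm. At 5-7 mm GH3.4, on chromosome 5, read 7.97, 8.52 and 8.27 in osmads1 and 9.54, 9.51 and 9.20 in wild type, 2.24-fold lower and without overlap (-1.17 ± 0.13, adjusted p = 3.07e-05). At 2 mm GH3.4 read 8.91, 8.91 and 8.94 against 9.25, 9.24 and 8.97, which did not pass (-0.23 ± 0.13, adjusted p = 0.346), and the interaction was -0.93 ± 0.19 (adjusted p = 0.00262). GH3.8, an IAA-amido synthetase gene first described as OsMGH3 and as acting downstream of OsMADS1, lies on chromosome 7 and was higher in the mutant at 5-7 mm. It read 7.88, 8.32 and 8.24 in osmads1 and 7.60, 7.29 and 7.18 in wild type, 1.73-fold (0.79 ± 0.15, adjusted p = 0.0018). At 2 mm it read 8.43, 7.89 and 8.13 against 7.83, 7.90 and 7.75, with overlapping arrays (0.32 ± 0.15, adjusted p = 0.221), and its interaction did not pass (0.47 ± 0.21, adjusted p = 0.146). GH3.9 rose at 5-7 mm as well, from 5.25, 5.38 and 5.67 in wild type to 5.88, 6.02 and 5.92 in osmads1 (0.51 ± 0.10, adjusted p = 0.00276).

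At 2 mm GH3.1 and GH3.7 rose and GH3.2 fell. GH3.1, an IAA-amido synthetase gene, read 8.18, 8.98 and 8.65 in osmads1 and 7.85, 8.02 and 7.85 in wild type, with a wide spread in the mutant but no overlap (0.70 ± 0.15, adjusted p = 0.0091). At 5-7 mm GH3.1 read 8.69, 8.88 and 8.77 against 9.22, 9.29 and 9.05, lower on all mutant arrays but not past the threshold (-0.41 ± 0.15, adjusted p = 0.0792), and the interaction was -1.11 ± 0.22 (adjusted p = 0.00225). GH3.2, likewise an IAA-amido synthetase gene, read 3.65, 3.99 and 4.03 against 4.41, 4.68 and 4.41 at 2 mm (-0.61 ± 0.14, adjusted p = 0.0133), a call that ended when either osmads1 replicate 1 or wild-type replicate 2 was left out (largest adjusted p 0.0664). GH3.7 read 8.10, 7.92 and 8.04 against 7.63, 7.42 and 7.65 (0.45 ± 0.083, adjusted p = 0.00275). The dimmer GH3.7 probe sets differed by -0.13 and 0.19, and the mean of its probe sets by 0.17 (adjusted p = 0.329). In that mean the GH3.7 interaction, -0.49 ± 0.12 by the brightest probe set (adjusted p = 0.00901), was -0.24 (adjusted p = 0.247). GH3.5, better known as JAR1 and acting on jasmonate rather than auxin, read 7.35, 7.02 and 7.36 against 6.98, 6.98 and 6.77 at 5-7 mm (0.33 ± 0.13, adjusted p = 0.0824). GH3.6 and GH3.11 were not called in a genotype or interaction contrast.

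**Figure D4:**
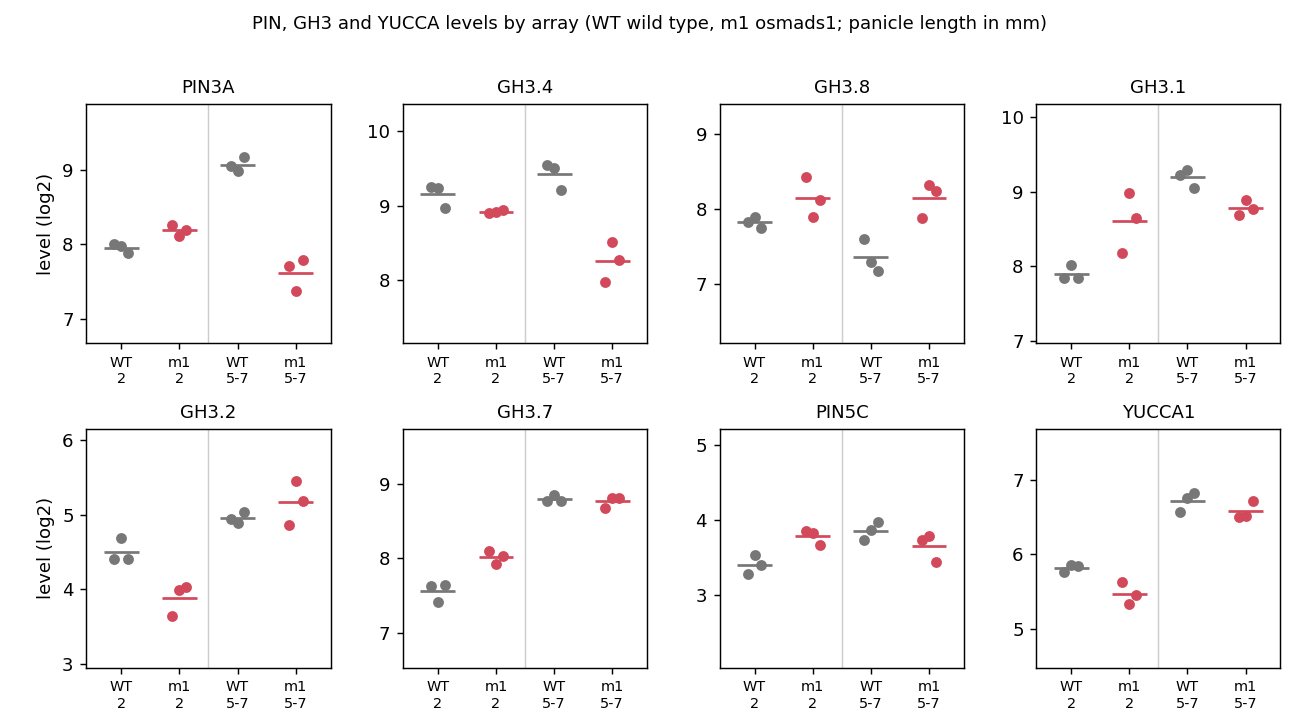
Levels (log2, vertical axis) of 2 PIN genes, 5 GH3 genes and YUCCA1 on each of the 12 arrays, by genotype and panicle length (horizontal axis), with a bar at each group mean of 3 arrays. PIN3A and GH3.4 show the widest gaps, both lower in osmads1 at 5-7 mm; levels left and right of the grey line are not on one scale.

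YUCCA1, the flavin monooxygenase gene of auxin synthesis, read 5.63, 5.34 and 5.46 in osmads1 and 5.76, 5.86 and 5.84 in wild type at 2 mm. It was lower on all mutant arrays (-0.35 ± 0.097, adjusted p = 0.0337), a call that ended when osmads1 replicate 2, osmads1 replicate 3 or any 1 wild-type array of that length was left out (largest adjusted p 0.138). At 5-7 mm it differed by -0.14 ± 0.097 (adjusted p = 0.373). A second, dimmer YUCCA1 probe set differed by -0.09 at 2 mm and by 0.51 at 5-7 mm (adjusted p = 0.00766), so that the probe sets do not give one direction. SAUR39, a negative regulator of auxin synthesis and transport in rice, read within the reporter range in every group (-0.58 ± 0.20 at 5-7 mm, adjusted p = 0.0538), so that no fold is given.

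The genotype difference itself changed between the lengths for 30 of the 59 auxin genes, 17 upwards and 13 downwards (50.8%), where 36.3% of all genes were called (17.2% upwards and 19.2% downwards). The median change was 0.13 for the members and 0.001 over all genes. A change of at least 2-fold was measured for 9 members, a count that was not made over all genes. IAA20 is among the 9, although its osmads1 group at 2 mm read within the reporter range. By family the 30 were 13 of 26 Aux/IAA genes (8 upwards, 5 downwards), 10 of 17 ARF genes (7 and 3), 5 of 9 GH3 genes (2 and 3) and 2 of 5 PIN genes (0 and 2). Of 7 members called at both lengths 5 had opposite signs, ARF14, IAA12 and IAA2 from lower to higher and ARF22 and IAA24 from higher to lower. That is 71.4% of them, and over all genes 1538 of 1926 called at both lengths, or 79.9%, had opposite signs. In all, 32 members were called at one length or both (54.2%, beside 44.2% of all genes) and 27 at neither, and 11.9% of the members and 10.8% of all genes were called at both. The difference at each length came from that length's own arrays. Its SE and adjusted p used a spread estimated from all 4 groups together, so calls at the lengths are not independent of each other. The interaction holds all 4 groups.

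**Figure D5:**
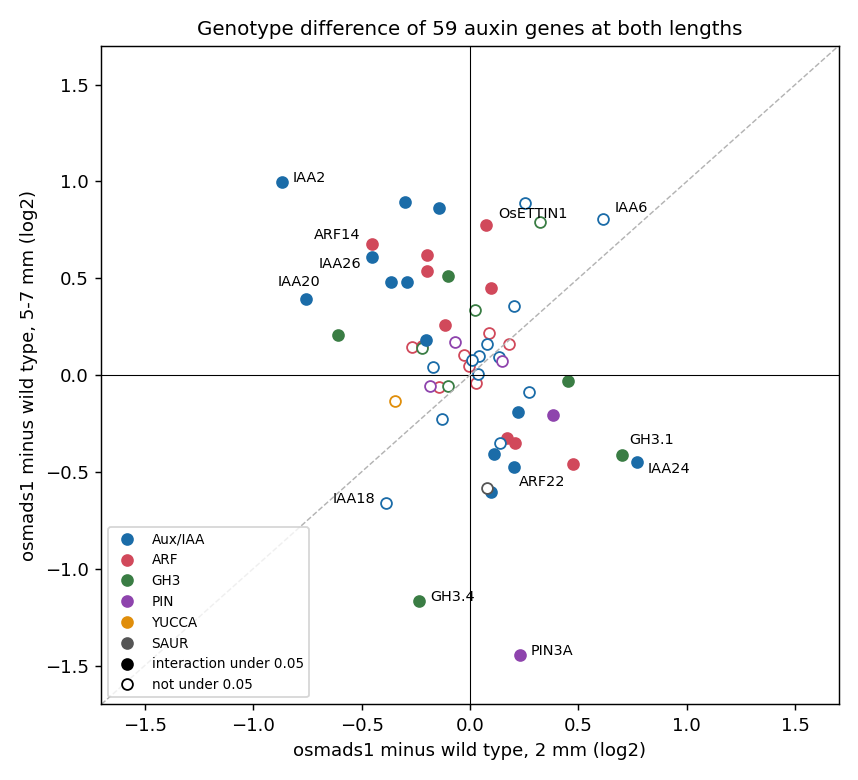
Genotype difference (osmads1 minus wild type, log2) of the 59 auxin genes at 2 mm (horizontal axis) and 5-7 mm (vertical axis), 1 point per gene, coloured by family. Filled points have an interaction with an adjusted p under 0.05, 30 genes, and the dashed line marks equal differences at both lengths.

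Development from 2 mm to 5-7 mm, between which the RNA quality readings also differed, was read after quantile normalization of all 12 arrays together. On that scale 23 auxin genes rose and 15 fell in wild type (64.4%, where 57.2% of all genes were called, 30.0% higher and 27.2% lower). In osmads1 29 rose and 12 fell (69.5%, where 62.2% were called, 32.3% higher and 29.9% lower). These splits moved with the scaling: as deposited they were 53 and 2 in wild type and 48 and 3 in osmads1, and with each array centred on its median 11 and 27, and 19 and 19. The wild-type count of 15 lower genes was 9 without wild-type replicate 3 of 5-7 mm. In wild type 11 genes rose and 2 fell on all 3 scales, and in osmads1 19 rose and 3 fell on all 3. The most that could fall on all 3 were the 2 and 3 that fell as deposited. The most that could rise were the 11 and 19 that rose with median centring. The scales thus set this split, and no share over all genes was counted for it.

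IAA30 rose in wild type by 1.67 to 2.54 across the scales and in osmads1 by 1.20 to 2.06, and IAA18 rose in wild type by 0.92 to 1.79. ARF10 rose by 0.81 to 1.68 in wild type and by 1.17 to 2.03 in osmads1. Falling in wild type on every scale were IAA26 (-1.59 to -0.72) and GH3.8 (-1.34 to -0.47). Falling in osmads1 on every scale were GH3.4 (-1.53 to -0.67), PIN3A (-1.42 to -0.56) and IAA15 (-1.09 to -0.23), and IAA2 rose there by 1.40 to 2.26. The wild-type and osmads1 differences came from separate arrays, but their calls share a spread estimated from all groups. On the quantile scale all arrays were also normalized together.

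Of 16 measured genes matched by name to a list of other auxin pathway genes, 2 rose and 1 fell at 2 mm, and 1 rose and 4 fell at 5-7 mm. These are 18.8% and 31.2% of the 16, near the 22.3% and 32.7% of all genes. Among the 16, CRL4 is also named CHARK and OsHKL1, so its place in the auxin pathway is in doubt. It was not called at either length. No TIR1/AFB receptor or AUX influx carrier gene was matched by name. DAO, the dioxygenase that oxidises IAA, read 7.53, 7.51 and 7.55 in osmads1 and 6.77, 6.57 and 6.82 in wild type at 2 mm (0.81 ± 0.080, adjusted p = 2.01e-05). At 5-7 mm DAO read 6.06, 6.09 and 6.01 against 6.47, 6.55 and 6.36 (-0.41 ± 0.080, adjusted p = 0.0024). Its arrays did not overlap at either length, and its interaction was -1.22 ± 0.11 (adjusted p = 5.19e-06).

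TAR2, also named FIB, a tryptophan aminotransferase at the first step of IAA synthesis, fell at 2 mm, from 6.90, 7.12 and 6.93 in wild type to 6.38, 6.15 and 6.62 in osmads1 (-0.60 ± 0.12, adjusted p = 0.00436). TPR2, a corepressor of the TOPLESS type that Aux/IAA proteins recruit, rose at 5-7 mm, from 9.57, 9.71 and 9.53 to 10.18, 10.18 and 10.28 (0.61 ± 0.086, adjusted p = 0.000195), with an interaction of 0.86 ± 0.12. The arrays of neither gene overlapped in these comparisons. Of the genes named for hydrolases of IAA conjugates, ILL5 rose at 2 mm (0.31 ± 0.078, adjusted p = 0.0202), a call that ended when osmads1 replicate 2, osmads1 replicate 3 or any 1 wild-type array of that length was left out (largest adjusted p 0.0835). ILL7 (-0.24) fell at 5-7 mm, as did WOX11 (-0.40), a factor of crown root growth. ILL8 was at least 1.28-fold lower there (adjusted p = 0.0339), with its osmads1 group within the reporter range, and the arrays of ILL8 and WOX11 overlapped. Leaving out 1 array ended the call of ILL7 in 3 fits, those without replicate 1 of either genotype or wild-type replicate 3 at 5-7 mm (largest adjusted p 0.0867), and that of ILL8 in 4, without replicate 2 or 3 of either genotype at that length (adjusted p up to 0.131). The WOX11 call was lost in 10 of 12 such fits, all but those without replicate 2 of either genotype at 5-7 mm (adjusted p up to 0.181). PID, the PINOID-type kinase gene of PIN polarity, was not called at either length (0.36 ± 0.19 and 0.14 ± 0.19).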

How the data were processed

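Total RNA of panicles was hybridised to Affymetrix rice arrays, 1 array per biological replicate. The authors deposited log2 levels per probe set, with Partek and RMA named in the submitters' processing notes; neither version nor settings were given in the sources used here. RMA gives no detection call and compresses differences of dim probe sets. Array medians differ between the lengths, so stage contrasts used a common quantile normalization and genotype contrasts the deposited log2 values. A linear model with a mean for each group was fitted to all 12 arrays at once in limma (version 3.58.1, under R 4.3.3) and moderated with eBayes, with 8 residual and 4.74 prior degrees of freedom. The procedure was tested on simulated data. The number of arrays limits the precision. Control probe sets (187) were left out and 57194 were tested without a filter. Of these, 22436 carry 1 gene in the platform annotation, 95 carry several and 34663 carry none. Current names and chromosomes came from the RefSeq gene table, in which all 22436 were found. Members had 74 probe sets, and 12 members had more than 1. PIN3A was taken in although a letter follows its number. For 5 members the probe set used is of a type (x) that may also bind related genes, PIN3A and YUCCA1 among them, and for 1 it is shared by transcripts (s).

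The members and lists were chosen with earlier results of these data known. Per-array values are given, as a rule, for up to 5 called members per family and contrast by size whose arrays do not overlap between genotypes, and values for up to 3 bright uncalled members per family; others named were chosen after their values were seen. Replicate arrays correlated at 0.9954 to 0.9977 over probe sets, and no pair was identical. Alternatives were other scalings, a filter on dim probe sets, an intensity trend, each comparison's own arrays, the mean of a gene's probe sets, a replicate block and leaving out each array. Figures were drawn with matplotlib 3.10.9.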

Additional observations from a re-analysis of the deposited data

Results flagged for a closer look

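For 30 auxin genes the test of the difference between the lengths passed, that is, the osmads1 minus wild type difference at 5-7 mm minus that at 2 mm had an adjusted p under 0.05 in limma. The change was upwards, in log2 units, for the Aux/IAA genes IAA2 (1.87), IAA7 (1.19), IAA20 (1.15), IAA26 (1.06), IAA13 (1.004), IAA12 (0.84), IAA8 (0.77) and IAA17 (0.38). It was upwards for the ARF genes ARF14 (1.13), ARF9 (0.82), ARF3 (0.73), OsETTIN1 (0.70), ARF23 (0.37), OsETTIN2 (0.37) and ARF10 (0.35), and for GH3.2 (0.82) and GH3.9 (0.61). The change was downwards for IAA24 (-1.22), IAA9 (-0.70), IAA1 (-0.68), IAA15 (-0.52) and IAA10 (-0.41), for ARF22 (-0.93), ARF7 (-0.56) and ARF18 (-0.50), for GH3.1 (-1.11), GH3.4 (-0.93) and GH3.7 (-0.49), and for PIN3A (-1.68) and PIN5C (-0.59). For IAA20, IAA12, IAA8 and PIN5C at least 1 group read within the reporter range, so the sizes of these changes rest in part on such values. Of all measured genes 36.3% passed the same test, so the auxin genes are among many whose genotype difference changed.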

How the results depend on the processing

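The 14, 25 and 30 auxin genes called at 2 mm, at 5-7 mm and in the interaction numbered 11 to 17, 24 to 32 and 25 to 32 under the alternatives that kept all arrays of the comparison, and no called difference changed sign. Leaving out 1 array at a time gave totals of 8 to 15, 23 to 26 and 26 to 30. At 2 mm the lower members then numbered 2 to 9 and the total fell to 8 without wild-type replicate 2 of that length. The stage contrasts depended on scaling: as deposited, 53 members were higher and 2 lower in wild type and 48 and 3 in osmads1, and with median centring 11 and 27, and 19 and 19. Lower members in wild type numbered 9 to 16 when 1 array was left out. The cause was not tested. Deviations from the group mean correlated at -0.068 to 0.172 between arrays of the same replicate number. Arrays of unlike number were not compared, so whether the numbers pair the samples was not settled. A replicate block gave 13 called members at 2 mm, 27 at 5-7 mm and 29 in the interaction. Between lengths it gave 24 higher and 15 lower in wild type and 30 and 12 in osmads1.

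Calls that ended under the other alternatives (another scaling, a replicate block, an intensity trend, the mean of a gene's probe sets, or the arrays of 1 comparison alone) were those of ARF23 (adjusted p up to 0.146), YUCCA1 (0.102), IAA12 (0.0696) and GH3.7 (0.329) at 2 mm, of OsETTIN2 (0.131), ARF18 (0.0591) and IAA26 (0.059) at 5-7 mm, and of OsETTIN2 (0.0582), IAA10 (0.0707), ARF10 (0.0632), IAA8 (0.0585) and GH3.7 (0.247) in the interaction. Between lengths, scaling apart, they were those of IAA31 in wild type (0.0643) and of GH3.2 (0.0686) and IAA8 (0.0569) in osmads1. Array data carry no counts. Probe sets in the range of the reporter controls give lower limits only, and these depend on ending that range at the upper quartile.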
